A study of Mus musculus with 7 samples.

Results

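A group of 10 subunit genes of the BAF chromatin remodelling complex was followed through the developing mouse dorsal forebrain, the embryonic territory of the cerebral cortex. The 10 genes were chosen by symbol, as the subunits that are exchanged, or discussed as exchanged, when a neural progenitor becomes a neuron, out of 21862 genes in the deposited table. They are Actl6a and Actl6b, Ss18 and Ss18l1, Phf10, Dpf1 and Dpf3, Smarcc1 and Smarcc2, and the ATPase Smarca4. All 10 symbols were found. The values came from Drop-seq, in which single cells are caught in droplets with barcoded beads and each mRNA molecule is counted once by its unique molecular identifier (UMI), near the 3′ end of the transcript, so that transcript length does not enter the count. Tissue came from embryos of timed-pregnant CD-1 mice, an outbred strain, at 6 stages of corticogenesis, the earliest E10.5 (embryonic day 10.5) and the latest E18.5. E14.5 was sampled 2 times and every other stage 1 time, so that 7 samples were measured. The labels list no treatment or mutation, and the groups compared below are cell states and stages. How many embryos or litters entered a sample was not given in the sources used here, so p-values below rest on these samples, which differ in stage. For comparisons of states they measure the spread left after differences between samples are taken out. For slopes they measure the spread of samples around the fitted line.

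BAF complexes, the mammalian SWI/SNF family, use ATP to slide or evict nucleosomes and so open chromatin to transcription factors. In the mouse nervous system a set of subunits used by dividing progenitors, among them the actin-related protein BAF53a (Actl6a), SS18 and PHF10, is replaced by the paralogs BAF53b (Actl6b), CREST (Ss18l1), DPF1 and DPF3 as cells leave the cell cycle. In mouse neurons the microRNAs miR-9-3p, also called miR-9*, and miR-124 are known to repress Actl6a through the end of its transcript, and REST, a repressor that binds RE1 elements, is known to hold both microRNAs down in non-neuronal cells.

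The sequences through which the progenitor and the neuronal member of the first pair have been discussed are shown here because that pair gave the largest contrast among the 10 genes. The mature microRNA, from the RefSeq table, has its seed, bases 2 to 8, in capitals. The 7 letters complementary to the seed occurred 1 time in the last 374 bases of the Actl6a transcript, counted from the stop codon, and they are in capitals in the site (chr3:32726630-32726656, GRCm38, plus strand). An end of the same length held these 7 letters in 2.76% of 21659 genes. The microRNA itself was not measured here, and miR-124 is named only.
mmu-miR-9-3p: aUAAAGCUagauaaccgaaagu
Actl6a site: caacgtctgtAGCTTTAgtacactcag

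In GRCm38 (GENCODE vM21) the genes lie at chr3:32706298-32726973 (Actl6a), chr5:137553517-137569582 (Actl6b), chr7:29303951-29318243 (Dpf1), chr12:83213745-83487716 (Dpf3), chr17:14945009-14961273 (Phf10), chr2:180042509-180070201 (Ss18l1), chr9:110117708-110240178 (Smarcc1), chr10:128459248-128490482 (Smarcc2) and chr9:21616169-21704230 (Smarca4). Among the 10 genes 9 had a promoter in the RefSeq table of GRCm38.p6, and those of Actl6b (chr5:137553296-137553595, plus strand) and Dpf1 (chr7:29303755-29304054, plus strand) are printed because these genes had the 2 largest rises. Capitals mark 3 motifs searched on both strands: CCAAT, found in 37.4% of 32851 promoters; GGGCGGGG, a GC box, in 17.6%; and GGACAGC, the 3′ part of the RE1 element, in 6.56%. The Actl6b promoter held 6 matches, of which 2 GC boxes overlap, and the Dpf1 promoter held 2, both CCAAT. A match describes these letters only.
Actl6b promoter: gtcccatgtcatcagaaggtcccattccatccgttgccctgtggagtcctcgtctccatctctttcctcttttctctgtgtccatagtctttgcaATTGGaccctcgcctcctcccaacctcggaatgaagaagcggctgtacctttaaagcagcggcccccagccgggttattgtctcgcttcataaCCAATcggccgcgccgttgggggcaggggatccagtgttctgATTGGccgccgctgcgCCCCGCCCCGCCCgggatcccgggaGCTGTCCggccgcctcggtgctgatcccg
Dpf1 promoter: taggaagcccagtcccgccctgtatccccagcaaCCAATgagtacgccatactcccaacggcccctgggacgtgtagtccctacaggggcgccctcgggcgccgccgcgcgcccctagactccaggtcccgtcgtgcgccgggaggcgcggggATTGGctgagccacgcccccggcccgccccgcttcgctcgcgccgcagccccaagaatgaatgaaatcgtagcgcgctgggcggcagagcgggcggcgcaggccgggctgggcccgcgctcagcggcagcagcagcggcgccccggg

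The deposited table held 10261 cells with 27776936 UMIs in 12 libraries, and the samples ranged over 387 to 3235 cells and 1519473 to 6638760 UMIs. Each cell carried 1 of 19 cluster numbers, the deposited labels, without names. The labels used here were set against marker lists, counting markers raised at least 2-fold over other cells. Labels 1, 3 and 10 raised 8 to 10 of 10 apical progenitor markers, and labels 4 and 7 raised 8 of 8 intermediate progenitor markers. Label 0 raised 6 of 6 newborn neuron markers, and label 8 raised 9 of 9 interneuron markers. Labels 2 and 11 raised 8 and 10 of 11 projection neuron markers. Labels 5 and 9 matched less well, with 5 and 3 of the 11, and were 65.7% and 32.4% of projection neurons at E18.5. Levels are given as CPM, a gene's UMIs divided by all UMIs of the sum and scaled to a common total. UMIs were summed per sample and state wherever at least 20 cells were present, which gave 33 sums. Projection neurons and newborn neurons had 6 such samples (E12.5 to E18.5), and apical progenitors, intermediate progenitors and interneurons had 7. The late apical sums were thin, with 25 cells at E16.5 and 24 at E18.5, of which 80.0% and 70.8% carried label 10. Median mitochondrial UMIs per cell lay between 2.25% and 7.53% over samples and were highest from E15.5 on. Markers of glial progenitors summed to 0 to 12.5 CPM in projection neurons and 0 to 733 CPM in apical progenitors, and interneuron markers stayed at or below 40.2 CPM in projection neurons and 13.6 CPM in apical progenitors. The list for cortical hem and choroid plexus summed to 40.2 to 273 CPM in projection neurons and 0 to 41.0 CPM in apical progenitors, of which pooled Rspo3 made up 145 and 7.86 CPM, while Ttr stood at 0.124 and 0.171 CPM and Wnt3a at 0, and its part in the results was not tested. Across libraries 4 cell barcodes occurred in more than 1 library, and 1 of them occurred in 2 libraries of the same sample. Within a library, 518 of the 10261 cells shared the first 11 barcode bases with another cell, and the part of this in the cell counts was not tested.

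In projection neurons, set against apical progenitors, Actl6b, Ss18l1 and Dpf1 rose, Actl6a, Ss18 and Phf10 fell, and Smarcc2 and Smarca4 rose by smaller amounts, while Smarcc1 did not pass the test. Of the 9 members with enough UMIs to test, 5 rose, 3 fell and 1 did not pass (edgeR quasi-likelihood test with the sample as a block, Benjamini-Hochberg adjusted p under 0.05). The background was high: 61.2% of 8568 tested genes were called, 31.1% higher and 30.1% lower. The members' median log2 difference was 0.73, against 0.02 over all tested genes, whose median absolute difference was 0.641. The member median depends on how many rising and falling genes were put on the list. The authors drew the labels from the expression of these same cells, so the states are not independent of the genes tested. The 8 member calls held when cells were clustered anew without any BAF gene. That clustering cannot remove the dependence, since it used the same cells and genes that vary along with the members. Dpf3 was too low to enter the test.

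Actl6b encodes the neuronal actin-related subunit BAF53b, which mice need for dendrite growth and memory. In projection neurons it had a lowest level of 161 CPM, a median of 196 CPM and a highest of 207 CPM over 6 samples. In apical progenitors it ranged over 0 to 8.37 CPM with a median of 2.73 CPM over 7 samples, on 11 UMIs in all. The neuronal samples lay close together, and all of them were far above every apical sample. The pooled level was 188 CPM (exact Poisson 95% interval 178 to 197) in projection neurons and 1.88 CPM (0.938 to 3.36) in apical progenitors, and the fitted log2 difference was 6.47 (SE 0.27, edgeR adjusted p = 2.79e-22). The 11 listed markers of projection neurons were also read in apical sums, at 1.22% (Mapt) to 34.2% (Fezf2) of their neuronal level. Stmn2 stood at 1.34% and Neurod6 at 3.19%, against 1.0% for Actl6b. The part of free RNA in the few apical UMIs of Actl6b was not tested.

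Actl6a, the progenitor paralog BAF53a, which is also a subunit of the INO80 and NuA4 complexes, took the opposite course. Its level ranged over 23.1 to 105 CPM with a median of 50.9 CPM in projection neurons, and over 134 to 308 CPM with a median of 226 CPM in apical progenitors. The groups did not overlap, and the gap was smallest between the E12.5 neurons and the E16.5 apical progenitors. The log2 difference was -1.62 (SE 0.15, edgeR adjusted p = 6.06e-12), a fitted ratio of 0.326. The end of Actl6a overlaps Mrpl47 on the other strand, and the counted strand was not given in the sources used here. Pooled Mrpl47 stood at 83.0 CPM in projection neurons and 109 CPM in apical progenitors.

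Ss18l1 encodes CREST, a calcium-responsive coactivator, and Ss18 its progenitor paralog. Ss18l1 ranged over 38.8 to 64.2 CPM with a median of 57.4 CPM in projection neurons, and over 0 to 11.5 CPM with a median of 5.47 CPM in apical progenitors. Every neuronal sample was above every apical sample, and the fitted log2 difference was 2.94 (SE 0.28, edgeR adjusted p = 4.69e-12). Ss18 ranged over 7.54 to 27.0 CPM with a median of 15.3 CPM in projection neurons, and over 37.3 to 86.4 CPM with a median of 62.4 CPM in apical progenitors. Again no samples overlapped, and the log2 difference was -1.64 (SE 0.24, edgeR adjusted p = 1.26e-07). Both genes are low, and the late apical values of Ss18 rest on 9 and 4 UMIs.

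Another set joins PHF10, the progenitor PHD finger subunit BAF45a, with the neuronal DPF1 (BAF45b) and DPF3 (BAF45c), although PHF10 is now placed in the PBAF form of the complex and is no close copy of the DPF proteins. Dpf1 ranged over 190 to 270 CPM with a median of 239 CPM in projection neurons, and over 19.1 to 41.8 CPM with a median of 27.2 CPM in apical progenitors. It was the second largest rise among the members, with a log2 difference of 3.17 (SE 0.20, edgeR adjusted p = 3.14e-17), and its samples did not overlap. Phf10 ranged over 47.9 to 80.1 CPM with a median of 66.7 CPM in projection neurons, and over 67.9 to 196 CPM with a median of 142 CPM in apical progenitors. It was lower in neurons in 5 of 6 samples, with E18.5 the exception, and the log2 difference was -1.03 (SE 0.18, edgeR adjusted p = 3.27e-06). Phf10 overlaps 1600012H06Rik, which had 18.2 CPM in projection neurons and 24.6 CPM in apical progenitors when samples were pooled. Dpf3 stayed low, with 6.85 to 39.4 CPM and a median of 15.6 CPM in projection neurons, against 0 to 8.37 CPM and a median of 0 CPM in apical progenitors, and its samples overlapped.

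The scaffold pair behaved differently. Smarcc2 (BAF170) ranged over 469 to 812 CPM with a median of 546 CPM in projection neurons and 204 to 397 CPM with a median of 283 CPM in apical progenitors, without overlap, and rose by 1.06 on the log2 scale (SE 0.11, edgeR adjusted p = 5.03e-11). Smarcc1 (BAF155), described as the scaffold of progenitor and stem cell complexes, had a median of 517 CPM in projection neurons and 567 CPM in apical progenitors, with ranges of 386 to 557 and 394 to 797 CPM that overlapped. In the annotation Smarcc1 overlaps Dhx30, whose reads cannot be told apart from it without the counted strand, and which had 94.9 CPM in projection neurons and 82.2 CPM in apical progenitors when pooled. The Smarcc1 log2 difference was -0.01 (SE 0.10, 95% interval -0.20 to 0.19, edgeR adjusted p = 0.965). Smarca4, the ATPase BRG1, had a median of 627 CPM in projection neurons and 385 CPM in apical progenitors. It was higher in neurons in 6 of 6 samples, although its ranges of 361 to 857 and 204 to 584 CPM overlapped between stages, and rose by 0.73 on the log2 scale (SE 0.10, edgeR adjusted p = 2.91e-08). For 6 of the 10 members no neuronal sample overlapped an apical one, against 29.7% of all tested genes.

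**Figure D1:**
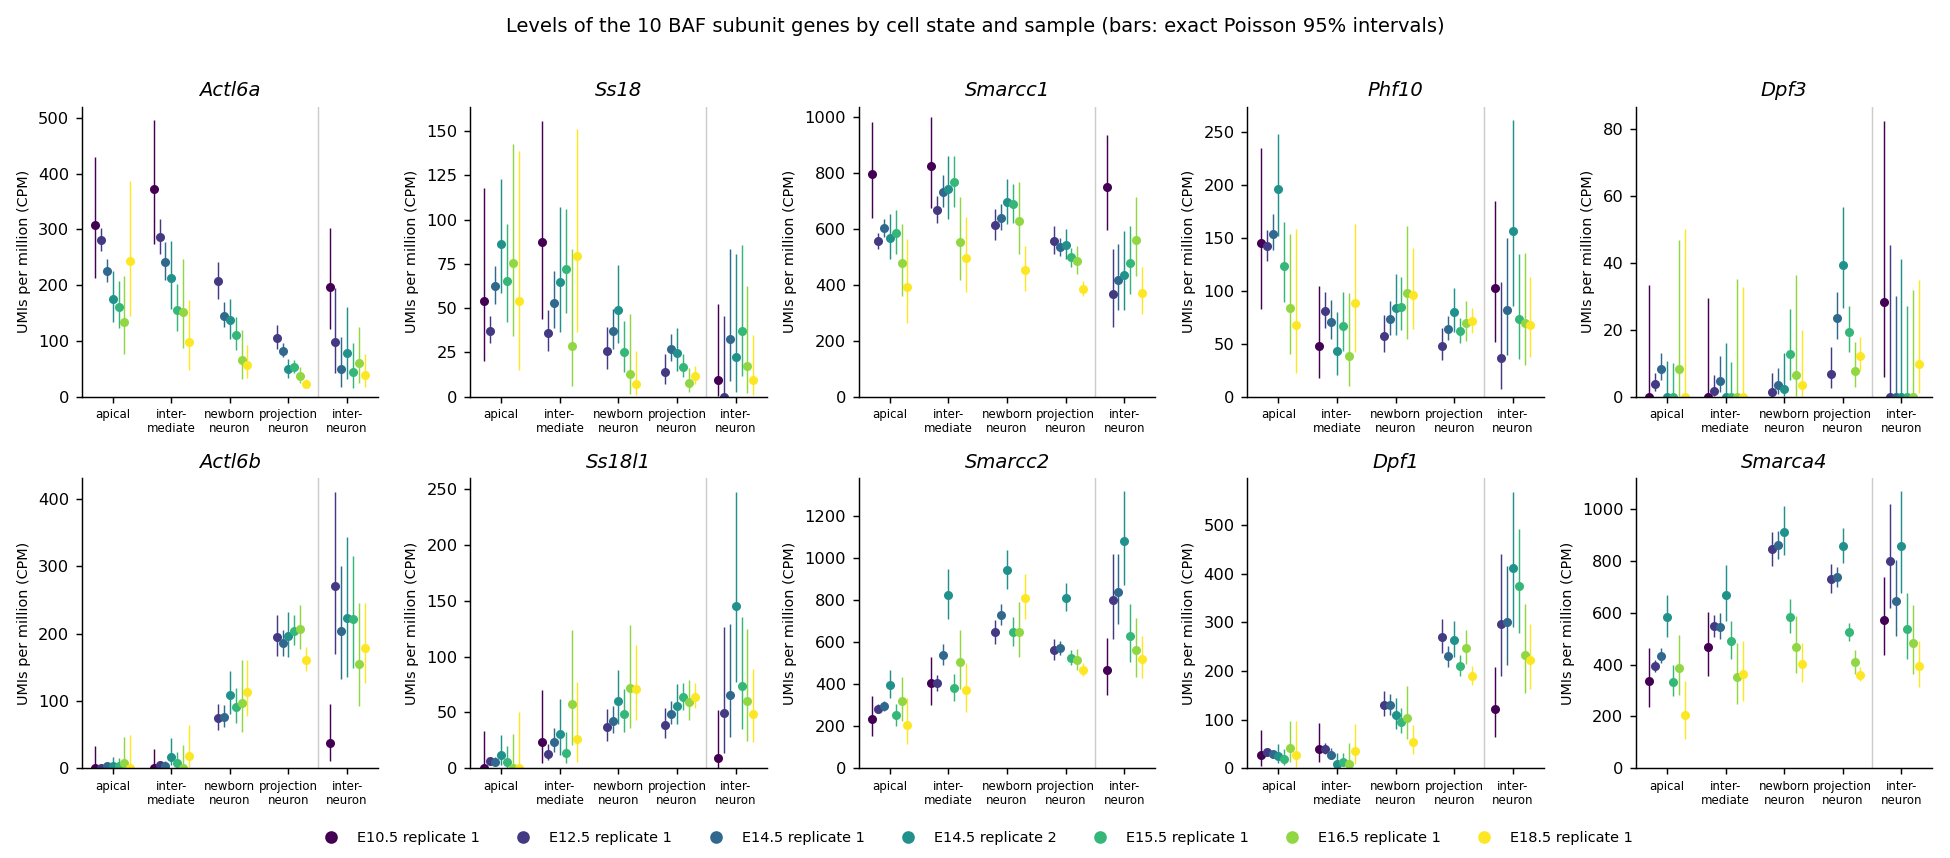
Levels of the 10 genes in CPM (linear axes from 0) by cell state, with 1 point per sample coloured by stage and exact Poisson 95% intervals that cover counting error only. The states run along the path, with interneurons set apart, and Actl6b has at least 161 CPM in projection neurons and at most 8.37 CPM in apical progenitors, whereas Actl6a has at most 105 CPM in projection neurons and at least 134 CPM in apical progenitors.

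Expressed as a share within each set, the neuronal members held most UMIs of 3 sets in projection neurons, and the scaffold pair stood near equal there. A UMI stands for 1 molecule whatever the transcript's length, so shares can be formed, although capture may differ between genes. Actl6b made up 77.7% ± 8.85 (SD, n = 6) of Actl6a and Actl6b UMIs in projection neurons and 1.52% ± 2.06 (n = 7) in apical progenitors. For Ss18l1 the share was 76.7% ± 9.21 in projection neurons and 6.12% ± 6.14 in apical progenitors, and for Dpf1 with Dpf3, set against Phf10, it was 79.3% ± 3.61 and 21.0% ± 9.16. Smarcc2 held 53.3% ± 3.57 in projection neurons and 33.5% ± 6.17 in apical progenitors. Paired within the 6 shared samples, the differences were 75.9 ± 8.26, 69.6 ± 14.4, 57.4 ± 11.3 and 18 ± 3.56 percentage points, each larger than its own spread. No test was run on the shares.

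In newborn neurons the mean shares of Actl6b (46.1%), Ss18l1 (68.2%) and Dpf1 with Dpf3 (56.3%) lay between those of progenitors and projection neurons, and over stages the sets ran in different directions. The Actl6b share in newborn neurons was, in order of stage with the 2 samples of E14.5 side by side, 26.4, 34.5, 44.3, 45.0, 60.0 and 66.7%, with exact 95% intervals of 20.7 to 32.7% at the first and 51.6 to 79.6% at the last. The share of Dpf1 with Dpf3 in the same sums ran the other way over the same samples, with 69.8, 64.5, 57.1, 56.1, 53.1 and 37.2%, and intervals of 61.7 to 77.0% and 23.0 to 53.3% at the ends. In projection neurons the Actl6b share was 65.0% at E12.5 and 87.5% at E18.5. These stage series are descriptions, with 1 sample at each stage except E14.5.

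**Figure D2:**
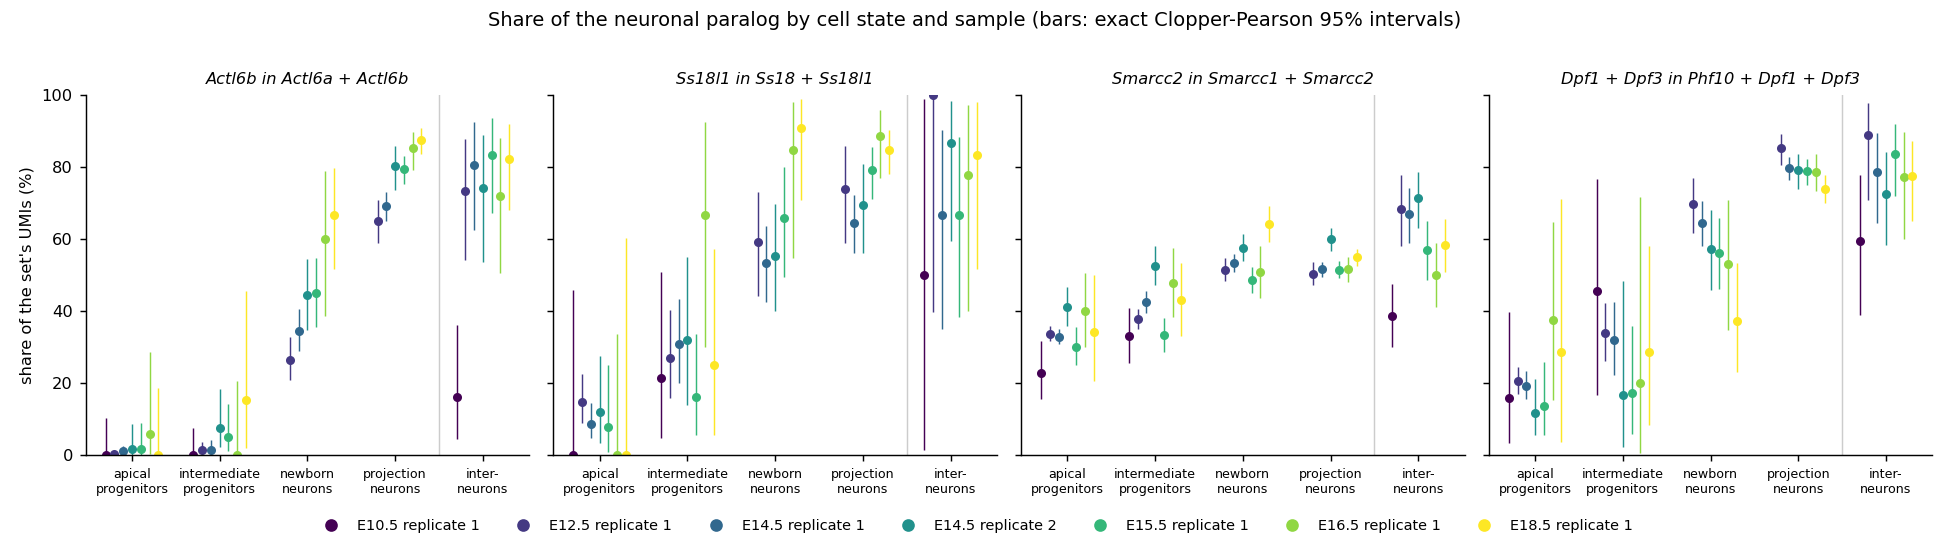
Share (%) of UMIs that came from the neuronal paralog or paralogs in each set, by state, with 1 point per sample and exact Clopper-Pearson 95% intervals. For Actl6b projection neurons lie at 65.0 to 87.5% and apical progenitors at 0 to 5.88%, and for Smarcc2 at 50.3 to 59.9% in projection neurons and 22.8 to 41.2% in apical progenitors.

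The first step, from apical to intermediate progenitors, the basal dividing cells marked by Eomes, moved Phf10, Ss18l1, the scaffolds and the ATPase, while Actl6a, Ss18 and Dpf1 did not pass. Of 9 tested members 5 rose and 1 fell, against 28.9% of tested genes called, 14.7% higher and 14.2% lower. Phf10 fell by 1.04 on the log2 scale (SE 0.19, edgeR adjusted p = 4.27e-05), as much as along the whole path, and was lower in 6 of 7 samples. Ss18l1 rose by 1.69 (SE 0.34, adjusted p = 0.000151) and was higher in 7 of 7 samples without overlap, with 13.2 to 57.1 CPM in intermediate and 0 to 11.5 CPM in apical progenitors. With cells clustered anew the Ss18l1 value was 1.09 (adjusted p = 0.0531). Smarcc2 rose by 0.77 (SE 0.11, adjusted p = 8.19e-07), Smarca4 by 0.39 (SE 0.10, adjusted p = 0.00269) and Smarcc1 by 0.29 (SE 0.10, adjusted p = 0.0208). The Smarcc1 call was lost under 7 of 20 alternatives, among them leaving out E12.5 (edgeR adjusted p = 0.0833), E14.5 replicate 1 (0.0706) or E15.5 (0.0682). Actl6b rose by 1.54 (SE 0.51, adjusted p = 0.0196) on 17 UMIs in intermediate and 11 in apical progenitors, a call lost under 6 of 20 alternatives, among them new clustering without BAF genes (1.19, adjusted p = 0.316) and leaving out E12.5 (1.17, adjusted p = 0.143) or E14.5 replicate 2 (1.37, adjusted p = 0.0698). Actl6a at 0.04, Dpf1 at -0.03 and Ss18 at -0.05 did not pass, with 95% intervals of -0.25 to 0.33, -0.54 to 0.48 and -0.51 to 0.40.

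The labels within the intermediate state differed. Label 4 had 568 CPM of Smarcc2 (95% interval 531 to 606) and 13.8 CPM of Dpf1 (8.66 to 20.9), whereas label 7 had 368 CPM (336 to 402) and 48.1 CPM (37.0 to 61.4). Actl6a was 204 CPM (182 to 227) in label 4 and 289 CPM (261 to 320) in label 7 when pooled. In the 3 samples where both labels had at least 20 cells, label 4 had 241, 210 and 164 CPM of Actl6a at E12.5, E14.5 replicate 1 and E15.5, and label 7 had 308, 340 and 142 CPM, so that E15.5 went the other way. The pooled values also mix stages, since most cells of label 7 came from E12.5, and their intervals leave out the spread between samples.

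The second step, from intermediate progenitors to newborn neurons, moved the actin-related, SS18 and DPF1 subunits. Of 9 tested members 5 rose and 2 fell, against 31.2% of tested genes called, 15.5% higher and 15.7% lower. Actl6b rose by 3.81 (SE 0.28, edgeR adjusted p = 1.52e-13), its largest step, with 74.0 to 114 CPM in newborn neurons and 0 to 17.7 CPM in intermediate progenitors. Dpf1 rose by 1.99 (SE 0.23, adjusted p = 3.35e-09) and Ss18l1 by 1.13 (SE 0.26, adjusted p = 0.00083), each higher in 6 of 6 samples. Smarcc2 rose by 0.61 (SE 0.11, adjusted p = 1.65e-05) and Smarca4 by 0.48 (SE 0.10, adjusted p = 0.000218). Ss18 fell by 0.93 (SE 0.26, adjusted p = 0.00467) and Actl6a by 0.61 (SE 0.16, adjusted p = 0.00252), each lower in 6 of 6 samples. The Actl6a call was lost with sums thinned to equal depth (-0.39, adjusted p = 0.473), that of Smarca4 likewise (0.36, adjusted p = 0.0904), and that of Ss18 in cells at up to 5% mitochondrial UMIs (-0.66, adjusted p = 0.0885). Phf10 at 0.22 and Smarcc1 at -0.04 did not pass (adjusted p = 0.468 and 0.804).

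In the last step, from newborn to projection neurons, 2 members rose and 2 fell, against 21.4% of tested genes called, 12% higher and 9.38% lower. Dpf1 rose by 1.20 (SE 0.16, edgeR adjusted p = 2.16e-07) and Actl6b by 1.13 (SE 0.15, adjusted p = 2.29e-07), both without overlap. Actl6a fell by 1.05 (SE 0.16, adjusted p = 2.15e-06), with 23.1 to 105 CPM in projection neurons and 57.0 to 207 CPM in newborn neurons, and was lower in 6 of 6 samples, a call lost with thinned sums at a like value (-1.10, adjusted p = 0.101). Smarcc2 fell by 0.32 (SE 0.10, adjusted p = 0.0196), a call lost under 9 of 19 alternatives, among them leaving out E14.5 replicate 1 (adjusted p = 0.101), E14.5 replicate 2 (0.0622), E15.5 (0.0521) or E18.5 (0.0904). Its median was 546 CPM in projection neurons and 690 CPM in newborn neurons. Ss18 at -0.66 (adjusted p = 0.0629), Smarcc1 at -0.26 (0.057), Phf10 at -0.21 (0.487), Smarca4 at -0.14 (0.344) and Ss18l1 at 0.12 (0.74) did not pass. Smarcc1 was called by DESeq2 (-0.23, adjusted p = 0.00158) and passed under 4 of 19 alternatives in all, and Ss18 passed under 4 of 18. Along the path, the called steps of Ss18l1 came earlier than those of Dpf1, and Actl6a was called lower in both steps after the intermediate state; whether a step exceeded another was not tested.

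**Figure D3:**
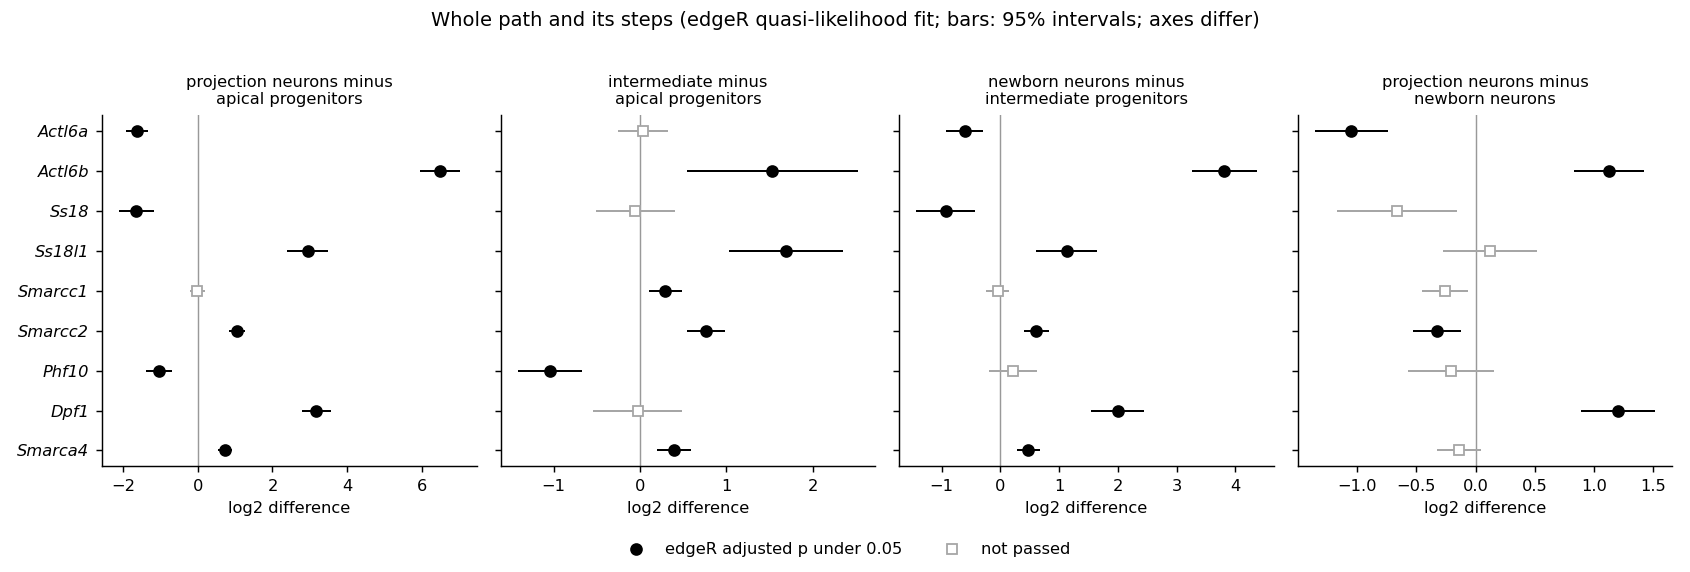
Fitted log2 differences (horizontal axes, which differ in scale) with 95% intervals for the 9 tested members over the whole path and its 3 steps, first-named state minus second. Filled circles passed the edgeR adjusted threshold of 0.05 and open squares did not, and Phf10 is called in the first step while Actl6a is called in the second and the third.

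The other subunits of the BAF, PBAF and ncBAF complexes gave 21 symbols in the table, all of them tested. From apical progenitors to projection neurons 13 rose, 3 fell and 5 did not pass, against 61.2% of all tested genes called (31.1% higher and 30.1% lower). Their median log2 difference was 0.58, against an all-gene median of 0.02 and an all-gene median absolute difference of 0.641. The largest rises were those of Bcl11b, a zinc finger subunit and a regulator of corticospinal neurons, by 4.44 (SE 0.23), Bcl11a, its paralog, by 2.50 (SE 0.16), Smarca2, the alternative ATPase BRM, by 2.0 (SE 0.17), and Bcl7a by 1.58 (SE 0.16), with edgeR adjusted p-values of 2.71e-19, 1.35e-16, 5.73e-13 and 1.44e-11. Smarca2 had a median of 498 CPM in projection neurons and 126 CPM in apical progenitors, so both ATPases rose. The 3 that fell were Bcl7c by 0.83 (SE 0.24, adjusted p = 0.00315), Dpf2, the widely expressed DPF paralog, by 0.76 (SE 0.24, adjusted p = 0.00624), and Bcl7b by 0.50 (SE 0.17, adjusted p = 0.0129). Over the steps, 9 rose and 1 fell in the first, 7 rose and 1 fell in the second, and 2 rose and 6 fell in the third, against 28.9%, 31.2% and 21.4% of all tested genes called in the 3 steps. Bcl7a (1.74) and Smarcd2 (1.34) had the largest rises in the first step and Smarcd3 (-0.73) fell, whereas Bcl11b (2.36) and Smarcd3 (1.59) led the second, where Pbrm1 (-0.37) fell. In the third step Bcl11b (0.91) and Smarca2 (0.88) rose, and Smarcd2 (-1.43) and Bcl7b (-0.56) had the largest falls.

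Of 5 genes listed as regulators, 1 rose, 2 fell and 2 did not pass over the path. Among all tested genes 61.2% were called, 31.1% higher and 30.1% lower, so this count is near the background. Rest had 14.1 to 32.0 CPM in projection neurons and 18.1 to 120 CPM in apical progenitors, and fell by 1.92 (SE 0.24, edgeR adjusted p = 3.92e-09). It was already low in intermediate progenitors, with 0 to 21.2 CPM and a first-step change of -2.71 (SE 0.29, adjusted p = 1.35e-09), and Rest then rose by 1.32 (SE 0.33, adjusted p = 0.00232) from newborn to projection neurons. Ptbp1, a splicing repressor of neuronal exons, fell by 2.84 over the path (SE 0.23, adjusted p = 1.06e-13), with steps of -1.51 from intermediate progenitors to newborn neurons (adjusted p = 7.04e-06) and -1.01 after it (adjusted p = 0.00634). Rcor2, a corepressor partner of REST and LSD1, rose by 2.90 in the first step (SE 0.19, adjusted p = 8.48e-16) and fell by 1.33 in the last (adjusted p = 1.66e-08). Ptbp2 at 0.14 and Rcor1 at -0.36 over the path did not pass (adjusted p = 0.467 and 0.113).

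Interneurons, which enter the cortex from the ventral forebrain, carried the subunits at levels that the test did not separate from those of projection neurons. None of the 9 tested members was called by edgeR, 1 of them had an unadjusted p under 0.05, and 14% of tested genes were called, 5.85% higher and 8.17% lower. Of those calls 41.7% were higher with TMM scaling, 49.7% with size factors and 54.0% with DESeq2. Smarcc1 gave the lowest adjusted p, with a log2 difference of -0.23 (95% interval -0.44 to -0.02, adjusted p = 0.171), and was called under 3 of 19 alternatives, new clustering (-0.39), at least 50 cells per sum (-0.46) and leaving out E10.5, E16.5 and E18.5 (-0.43), with adjusted p-values over all 19 of 0.00675 to 0.684. Smarcc2 gave 0.22 (0.00 to 0.43, adjusted p = 0.209) and was called under 1 alternative, DESeq2 (adjusted p = 0.048). Actl6b ranged over 155 to 271 CPM in interneurons and 161 to 207 CPM in projection neurons from E12.5 to E18.5. At E10.5 the 30 cells of label 8 stood apart, with 37.6 CPM of Actl6b, 122 CPM of Dpf1 and 197 CPM of Actl6a, and an Actl6b share of 16% (exact 95% interval 4.54 to 36.1%). Among other subunits 3 rose and 4 fell in interneurons, led by Dpf2 (1.06) and Smarce1 (0.58) among the rises and Bcl11a (-1.09) and Bcl7a (-0.73) among the falls.

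With stage, at a fixed state, edgeR called 1 member and DESeq2 called 2, Actl6a and Smarca4, in projection neurons. Slopes are log2 changes per day fitted over the sums of 1 state. In projection neurons edgeR called 1 of 10 members lower and none higher, against 3.08% of 9712 tested genes called, 2.05% higher and 1.03% lower. That member was Actl6a, with -0.36 per day (SE 0.06, edgeR adjusted p = 0.00889, 6 samples): its level was 105 CPM at E12.5, 82.6 and 48.9 CPM in the 2 E14.5 samples, and then 52.9, 36.5 and 23.1 CPM in the E15.5, E16.5 and E18.5 samples. The call was lost without E18.5 (-0.34, adjusted p = 0.0905) and when cells above 5% mitochondrial UMIs were left out (-0.33, adjusted p = 0.117). The make-up of the neurons changed over the same days, with label 2 at 91.8% of projection neurons at E12.5 and 0.584% at E18.5 and label 5 at 3.23% and 65.7%. Within a label the slope was -0.05 in label 2, -0.25 in label 5, -0.27 in label 9 and 0.46 in label 11 (edgeR adjusted p = 0.95, 0.729, 0.804 and 0.653), so the fall was not called within any of them. Each label has fewer samples and UMIs than the whole, and change within a label and change of label were not told apart. In newborn neurons, which are a single label, Actl6a was 207 CPM at E12.5, 145 and 137 CPM in the 2 E14.5 samples, and 110, 64.9 and 57.0 CPM in the later samples.

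Smarca4 came next, with a slope of -0.20 per day in projection neurons (SE 0.05, edgeR adjusted p = 0.0532). It passed under 8 of 23 alternatives, DESeq2 among them. Its level was 730 CPM at E12.5, 738 and 857 CPM at E14.5, and 524, 409 and 361 CPM in the 3 later samples. The later 3 samples were all below the earlier 3, and the same held in newborn neurons, with 844, 861 and 911 CPM and then 584, 467 and 403 CPM. The split was also seen in other states, which come from the same samples and so do not repeat it independently. It was not tested, and the share of all genes that split in this way was not taken. From E12.5 on, apical progenitors had 394, 433 and 584 CPM and then 334, 385 and 204 CPM, the last on 15 UMIs. Interneurons had 800, 645 and 857 CPM and then 537, 484 and 396 CPM. At E10.5 these 2 states stood at 335 and 573 CPM. In label 5 alone Smarca4 was 706 and 863 CPM at E14.5 and 550, 455 and 390 CPM in the later samples. The later samples are also those with the higher mitochondrial share, 6.80 to 7.53% against 2.25 to 3.83% in the earlier 3, and its part in the result was not tested beyond leaving out cells above 5%, which gave -0.24 (adjusted p = 0.0697).

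In apical progenitors none of the 7 members with enough UMIs was called by edgeR, 0 by DESeq2 and 0 at an unadjusted p under 0.05, against 5.35% of 6767 tested genes called (4.02% higher and 1.33% lower), and Actl6a had a slope of -0.11 (SE 0.06, adjusted p = 0.35), and a range of -0.206 without E18.5 to -0.081 without E12.5 when 1 sample was left out. The difference of the slopes, projection neurons minus apical progenitors, was fitted separately over the 6 samples with both states, with the sample as a block, so it need not equal the difference of the slopes above. It was called for 0 of 10 members and 3.02% of 10326 tested genes (1.97% higher and 1.06% lower), with 0 members called by DESeq2 and 2 at an unadjusted p under 0.05. Phf10 gave 0.31 (SE 0.10, edgeR adjusted p = 0.0816) and Actl6a -0.22 (SE 0.09, adjusted p = 0.205). The Actl6a difference of slopes was -0.068 without E18.5 and -0.370 without E12.5. Of the calls over all genes 65.1% were higher with TMM scaling, 53.5% with size factors and 35.7% with DESeq2. The difference for Actl6a was called under 1 of 21 alternatives, new clustering without BAF genes (-0.29, adjusted p = 0.0398). Among other subunits Bcl11b fell in projection neurons by 0.48 per day (SE 0.10, adjusted p = 0.0251).

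**Figure D4:**
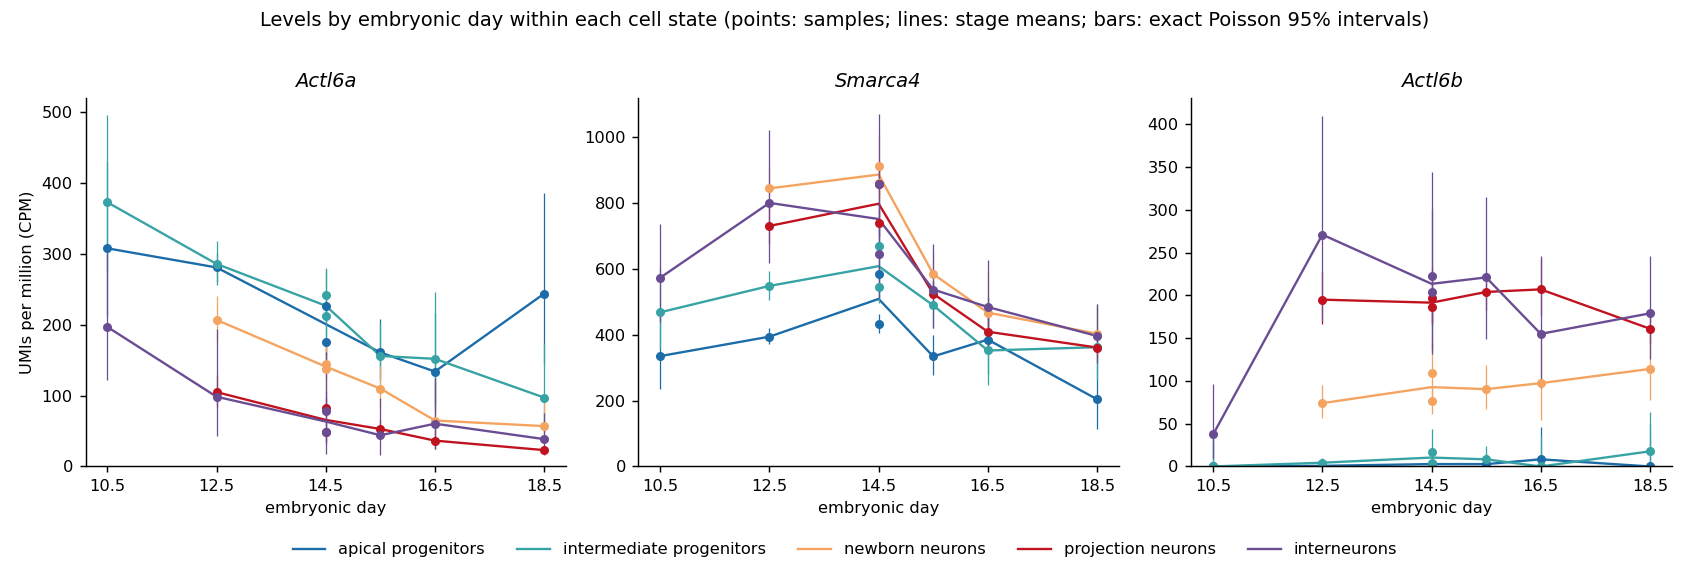
Levels (CPM, linear axes from 0) of Actl6a, Smarca4 and Actl6b by embryonic day within each state, with 1 point per sample, exact Poisson 95% intervals and lines through stage means. Actl6a in projection neurons lies at 105 CPM at E12.5 and 23.1 CPM at E18.5. In the same state Smarca4 lies lower from E15.5 on, and Actl6b stays at 161 to 207 CPM.

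Across the deposited labels Actl6b was read in every neuron label. Actl6b was highest in label 11 at 263 CPM (exact Poisson 95% interval 237 to 290), followed by label 9 at 193 CPM (173 to 215) and label 8 at 182 CPM (154 to 212), whose intervals overlap, and then label 2 at 164 CPM (148 to 181) and label 5 at 161 CPM (146 to 178), which overlap too. Label 13, with 6 of 6 markers of Cajal-Retzius cells, early-born Reln-secreting neurons, had 111 CPM (88.4 to 137) and 103 CPM of Actl6a (81.3 to 128). These pooled values mix stages. At E10.5, E12.5, E14.5 replicate 1, E15.5 and E18.5, label 13 had 35.9, 124, 132, 140 and 151 CPM of Actl6b. Its Actl6a in the same samples was 162, 144, 146, 55.8 and 13.7 CPM, the last on 2 UMIs. Dpf3 was highest in labels 9 and 11, at 31.2 CPM (23.4 to 40.7) and 30.9 CPM (22.6 to 41.2), against 3.56 CPM (1.63 to 6.76) in label 5. Label 6, with 621 of its 672 cells from E10.5, raised 3 of 7 erythroid and 2 of 10 apical progenitor markers at 2-fold and is left unnamed; it had 0 Actl6b UMIs of 2863369, an upper limit of 1.29 CPM, beside 284 CPM of Actl6a. Label 12, which raised 6 of 6 glial progenitor markers, had 130 CPM of Actl6a (108 to 156) and 7.47 CPM of Actl6b (3.0 to 15.4). These label intervals cover counting error only.

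**Figure D5:**
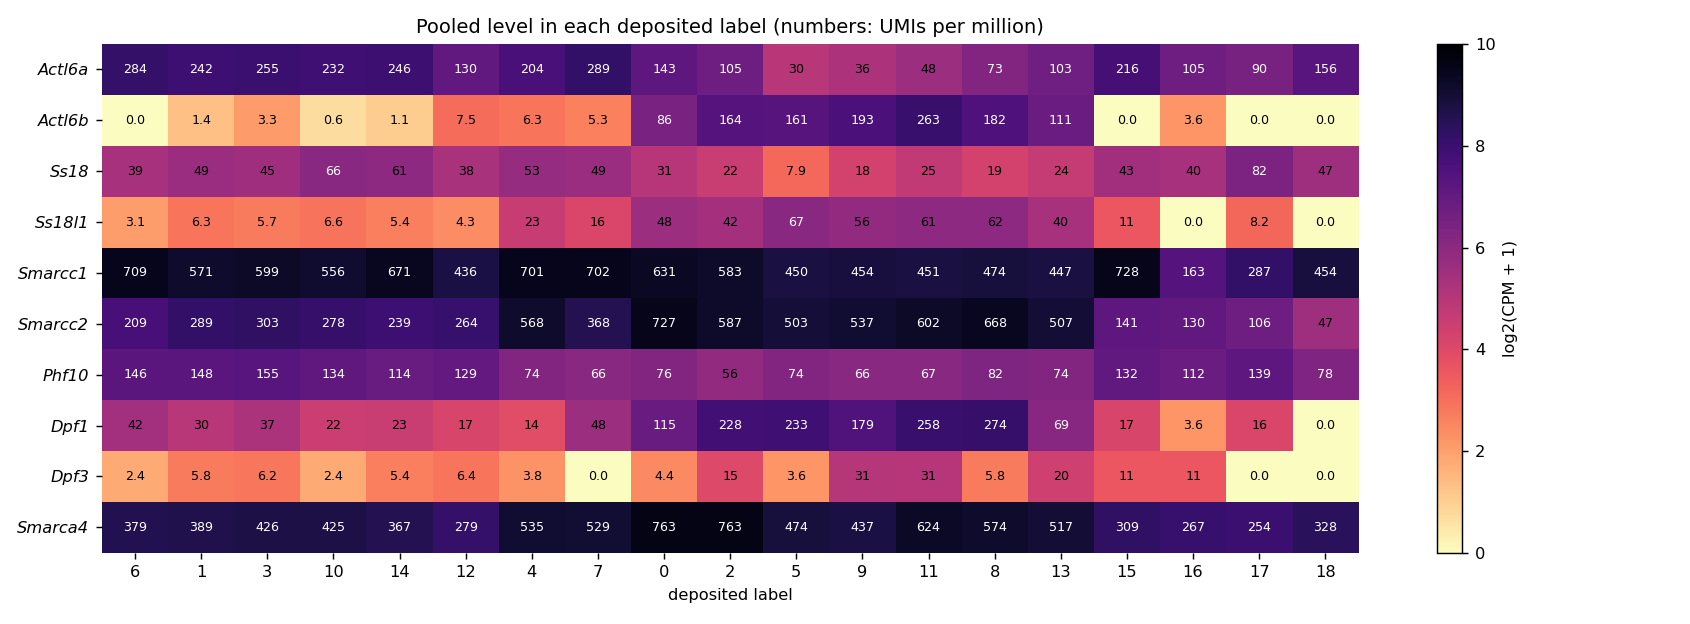
Pooled level of each gene in each deposited label, coloured by log2(CPM + 1) with the CPM printed in the cell, in the order of the unnamed label 6, progenitor labels, intermediate and newborn labels, neuron labels and non-neural labels. Actl6b stands at 86 to 263 CPM in labels 0, 2, 11, 5, 9, 8 and 13, and below 8 CPM elsewhere.

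The genes whose pattern was most like that of each actin-related paralog were sought over the 33 sums among 7200 genes with a mean of at least 20 CPM. For Actl6b these were Sez6l2 (Pearson r = 0.951), Nmnat2 (0.947), Celf5 (0.939), Myt1l (0.932) and Svop (0.930). For Actl6a they were Clic4 (0.890), Hnrnpm (0.889), Ska2 (0.885), Hmgn1 (0.866) and H2afv (0.865). Actl6a against Actl6b gave -0.803. The sums share samples and depth, so these values are descriptions with no test.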

How the data were processed

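Single cells of 7 tissue samples had been dissociated with papain and run by Drop-seq with the Drop-seq tools 3.1, per the labels' protocols, and the build mm10 and Seurat 3.1.5 are named in the submitters' processing notes. Aligner, annotation and counting strand are not given in the sources used here. The deposited table holds whole UMI counts per gene and cell that the authors left unnormalized, with a library and a cluster number for each cell; no cell has fewer than 501 genes or more than 9.996% of its UMIs from mitochondrial genes, so a filter preceded deposit. Libraries were assigned to samples by the labels, except that 1 library of 1303 cells was matched to E14.5 replicate 1 by its name with a suffix.

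Counts were summed per sample and state (at least 20 cells; 73689 to 2657206 UMIs per apical sum). States were labels 1, 3 and 10 (apical), 4 and 7 (intermediate), 0 (newborn), 2, 5, 9 and 11 (projection neuron) and 8 (interneuron). edgeR 4.0.16 (R 4.3.3) fitted quasi-likelihood models with TMM scaling and its low count filter, with the sample as a block for states, since both states of a pair come from 1 tissue sample, and embryonic day as a number for slopes; p-values were adjusted by Benjamini-Hochberg over all tested genes, with a threshold of 0.05. The fits were tested on simulated data. Intervals of levels and shares are exact at 95% and cover counting error only. The 95% intervals of log2 differences are approximate and come from the SE of the edgeR fit. Scrublet marked 95 cells (0.926%), which were kept. New clustering (Leiden, resolution 2.0, without BAF genes) gave 23 clusters and put 84.5% of cells in the same state. Alternatives were DESeq2 1.42.0, other scaling and filters, thinned sums, subsets of cells and leaving out each sample. The members and the lists were chosen with earlier results of these data known. Genes named were all members, the regulators listed, and of the other subunits the largest calls, up to 4 in each direction over the path and 2 elsewhere.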

Additional observations from a re-analysis of the deposited data

Results flagged for a closer look

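Among the subunits and regulators listed, Ptbp2, which encodes the neuronal PTB splicing protein, had a slope on embryonic day that differed between projection neurons and apical progenitors. The difference was 0.28 log2 per day (SE 0.07, edgeR adjusted p = 0.0219), fitted over the 6 samples with both states and with the sample as a block. Fitted apart, with E10.5 among the apical samples, the slopes were 0.08 in projection neurons and -0.13 in apical progenitors, and neither was called (adjusted p = 0.409 and 0.183). Its level ranged over 188 to 246 CPM in projection neurons and 136 to 274 CPM in apical progenitors. The apical values of E16.5 and E18.5 rest on 19 and 10 UMIs. It was the 1 call among 5 regulators, with 0 of 10 members and 0 of 21 other subunits called. Among all 10326 tested genes 3.02% were called, so the calls over these lists were near the background.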

How the results depend on the processing

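Over 43 member results, 840 alternative values gave the same call and direction 760 times, lost a call 34 times, gained one 22 times and turned the sign 24 times. The 8 member calls between projection neurons and apical progenitors held under all 19 or 20 alternatives run on each, with log2 ranges of 5.86 to 6.87 for Actl6b and -1.87 to -1.35 for Actl6a. Every turned sign belonged to a value that was not called, except the Actl6a slope, which was 0.46 in label 11 alone. For Smarcc1 over the path the turned values were 0.066 with no low count filter, 0.053 with thinned sums, 0.086 with at least 50 cells and 0.026 without the inferred library, and leaving out a sample gave -0.085 to 0.079. From apical to intermediate progenitors Actl6a gave -0.369 with thinned sums (-0.009 to 0.110 with a sample left out). Dpf1 there gave 0.128 in cells of 1000 UMIs or more, 0.019 at up to 5% mitochondrial UMIs, 0.018 without doublets, 0.137 clustered anew and 0.046 with 50 cells (-0.266 to 0.104). Ss18 gave 0.095 with labels 6 and 12 added (-0.133 to 0.050). In the next step Phf10 gave -0.032 clustered anew and Smarcc1 0.035 thinned.

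Counts over all genes moved by more than 1.5 times as follows, in the order of the comparisons. Thinned sums, which hold fewer UMIs, gave 1631, 724, 766, 367 and 431 calls for the 5 state comparisons, against 5246, 2476, 2669, 1835 and 1201, and 167 and 56 for the apical slope and the slope difference, against 362 and 312. Dropping the replicate block, the pairing by sample, gave 1474 for intermediate minus apical progenitors, 973 for projection minus newborn neurons, 693 for interneurons minus projection neurons and 82 for the slope difference; Smarca4, Smarcc1 (both in the first step), Smarca4 (second step) and Smarcc2 (last step) then lost their calls, at adjusted p = 0.233, 0.255, 0.098 and 0.292. Cells at up to 5% mitochondrial UMIs gave 742 for interneurons minus projection neurons, 97 and 110 for the apical and neuronal slopes and 123 for the slope difference. At least 50 cells per sum gave 148 and 196 for the apical slope and the slope difference, and labels 6 and 12 added gave 781 for the apical slope. No low count filter gave 684 for the neuronal slope (299 as reported), and labels 2, 5, 9 and 11 alone gave 85, 27, 11 and 10. DESeq2 gave 98 and cells of 1000 UMIs or more 174 for the slope difference. Leaving out a sample gave 1563 to 2486 calls for intermediate minus apical progenitors and 1186 to 1920 for projection minus newborn neurons, each lowest without E14.5 replicate 1. It gave 172 to 343 for the apical slope (lowest without E12.5), 147 to 311 for the neuronal slope (lowest without E16.5) and 148 to 346 for the slope difference (lowest without E18.5). The cause of these shifts was not tested, apart from the smaller sums. The single labels and the omission of E10.5, E16.5 and E18.5 were chosen after seeing the data.

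The apical sums of E16.5 and E18.5, and Actl6b, Ss18l1 and Dpf3 in progenitors, rest on few UMIs, so small differences there were not detectable at this depth. With 1 sample at most stages, stage and sample cannot be told apart.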

Other observations

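In the 4 labels outside the neural path Actl6a was read and Actl6b was at or near 0. Actl6b had 0 UMIs in the mesenchymal label 15, the microglial label 17 and the mural label 18, which allows at most 5.72, 30.2 and 57.7 CPM, and 1 UMI in the endothelial label 16 (3.61 CPM, exact Poisson 95% interval 0.0915 to 20.1). Actl6a stood at 216 CPM in label 15, 156 CPM in label 18, 105 CPM in label 16 and 90.1 CPM in label 17. Smarcc1 was 728 CPM in label 15, the highest of all labels, and 163 CPM in label 16, the lowest. Smarcc2 had its lowest pooled value, 46.9 CPM, in label 18, on few UMIs. That value is below the 57.7 CPM that 0 UMIs would allow in this label. These rankings of labels were not tested. Other neuronal members were not absent: label 15 had 17.1 CPM of Dpf1 (8.52 to 30.5) and 10.9 CPM of Ss18l1 (4.37 to 22.4), and label 16 had 10.8 CPM of Dpf3 on 3 UMIs. These labels hold 25 to 142 cells each and entered no comparison.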
